A study of Oryzias melastigma with 6 samples.

Results

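The microRNAs (miRNAs) of ovary were set against those of testis in breeding marine medaka (Oryzias melastigma), a small saltwater fish. The comparison took 2 of the 6 libraries of a series that also profiled female brain, male brain, female liver and male liver. Each library was made from pooled tissue, so that ovary and testis stand on 1 library each. The labels give neither an age nor the number of fish in a pool. No difference between the gonads therefore has a replicate check, and no p-values are given. All ratios are of ovary over testis unless another direction is named, and all values are in RPM, the usual unit of read counts divided by the size of the library, as deposited. A ratio of at least 2 in either direction with at least 50 RPM in the higher gonad was taken as a difference in level. The ovary library listed 380 exact sequences of 20 to 23 nt and the testis library 321, out of 1571 listed over all 6 libraries. The 2 gonads shared 212 of them, which is 55.8% of the ovary list and 66.0% of the testis list, while 168 were listed in ovary alone and 109 in testis alone.

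A miRNA guides an Argonaute protein to messenger RNAs that pair with its seed, the bases at positions 2 to 8 of its 5′ end, and lowers their translation or stability. In gonads miRNAs act in somatic support cells, in vessels and blood, and in germ cells, where piRNAs, a longer class that silences transposons, are abundant as well. The precursor hairpin gives a 5p and a 3p arm, and cutting, trimming or the addition of a base at the 3′ end gives each arm several length forms. The arm that is retained and the length forms that build up can differ between tissues.

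The sequences on which the results turned are given 5′ to 3′ in the letters of the deposited files, with the seed in capitals. Sequences of families at least 2-fold apart between the gonads come first, a selection that shows the seeds of the groups described in the text. Of miR-451-5p the 23-nt form is shown, the only one listed in both gonads, although a 21-nt form led in ovary.
miR-451-5p: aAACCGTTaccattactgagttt
miR-223-3p: tGTCAGTTtgtcaaatacccca
miR-146-5p: tGAGAACTgaattccatagatgg
miR-25-3p: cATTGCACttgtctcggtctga
miR-23-3p, 22 nt: aTCACATTgccagggatttcca
miR-23-3p, 21 nt: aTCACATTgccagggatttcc
miR-202-3p: aAAGAGGCataaggcatggga
miR-17-5p and its relatives: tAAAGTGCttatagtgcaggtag
miR-7-5p: tGGAAGACtagtgattttgttg
miR-10-5p: tACCCTGTagaaccgaatttgt
miR-29-3p, form with cggtgtt: tAGCACCAtttgaaatcggtgtt
miR-29-3p, form with cagtgtt: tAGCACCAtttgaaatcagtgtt
The next sequences belong to families whose forms had unequal ratios, and they show where in the molecule such forms part from each other. In miR-21-5p, miR-202-5p and miR-24-3p all forms listed in both gonads were still higher in ovary.
miR-21-5p, 22 nt: tAGCTTATcagactggtgttgg
miR-21-5p, 23 nt ending in a: tAGCTTATcagactggtgttgga
miR-21-5p, 23 nt ending in c: tAGCTTATcagactggtgttggc
miR-21-5p, 23 nt ending in t: tAGCTTATcagactggtgttggt
miR-202-5p, 21 nt: tTCCTATGcatatacttcttt
miR-202-5p, 23 nt: tTCCTATGcatatacttctttga
miR-24-3p ending in ccg: tGGCTCAGttcagcaggaaccg
miR-24-3p ending in cag: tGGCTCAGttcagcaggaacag
miR-15-5p, seed agcagcg: tAGCAGCGcatcatggtttga
miR-15-5p, seed agcagca: tAGCAGCAcggaatggtttgtg
let-7-5p with agtttgtata: tGAGGTAGtagtttgtatagtt
let-7-5p with agattgaata: tGAGGTAGtagattgaatagtt
The paired forms of miR-21, miR-23, miR-24, miR-29, miR-202-5p and let-7 keep 1 seed and part only behind it, whereas the miR-15 forms part within the seed.

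The deposited values implied 22.9 M reads in ovary against 25.5 M in testis, with M for mega, and 18.7 to 22.7 M in the brain and liver libraries. No sequence was listed under 10.004 RPM in ovary, or 229 reads, or under 10.026 RPM in testis, or 256 reads. An unlisted sequence therefore lay below about 10 RPM and may still have been present. All listed sequences together held 2.95% of the implied reads in ovary and 2.08% in testis, so most reads of both gonads are not seen here. Listed sequences of conserved miRNA families made up 2.37% of the implied reads in ovary (95% Wilson interval 2.366 to 2.379) and 1.54% in testis (1.535 to 1.544). These shares leave out miRNA sequences under the listing minimum. The markers of the gonads fitted the labels, since both arms of miR-202 were listed in ovary and testis and in none of the 4 brain and liver libraries. The liver marker miR-122-5p and the neuronal miR-124-3p, miR-9-5p and miR-9-3p were unlisted in both gonads. All intervals cover counting error only, because PCR copies were not marked by molecular identifiers.

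On deposited RPM more miRNA families were higher in ovary than in testis. The families at least 2-fold higher in ovary included several miRNAs of blood cells, miR-23-3p, miR-24-3p, miR-25-3p, miR-17-5p with its relatives and the 3p arm of miR-202. Of 69 family arms listed in a gonad, 54 were listed in both, 12 in ovary alone and 3 in testis alone. Among the 45 arms with at least 50 RPM in a gonad, 20 (44.4%) were at least 2-fold higher in ovary, 3 (6.67%) were at least 2-fold higher in testis and 22 lay within 2-fold. Since the tissues were sequenced whole, fewer cells of a type and less RNA per cell cannot be told apart in any of these values. The median log2 ratio over the 54 arms listed in both gonads was 0.56, a ratio of 1.47. The deposited values as a whole thus lay towards ovary, and whether this is scale or miRNA level was not tested. When each family was taken as a share of the miRNA RPM of its library, 13 of 45 (28.9%) were at least 2-fold higher in ovary and 5 (11.1%) in testis. On that scale 24 families were higher in ovary at any size and 21 in testis, against 36 and 9 on deposited RPM.

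**Figure D1:**
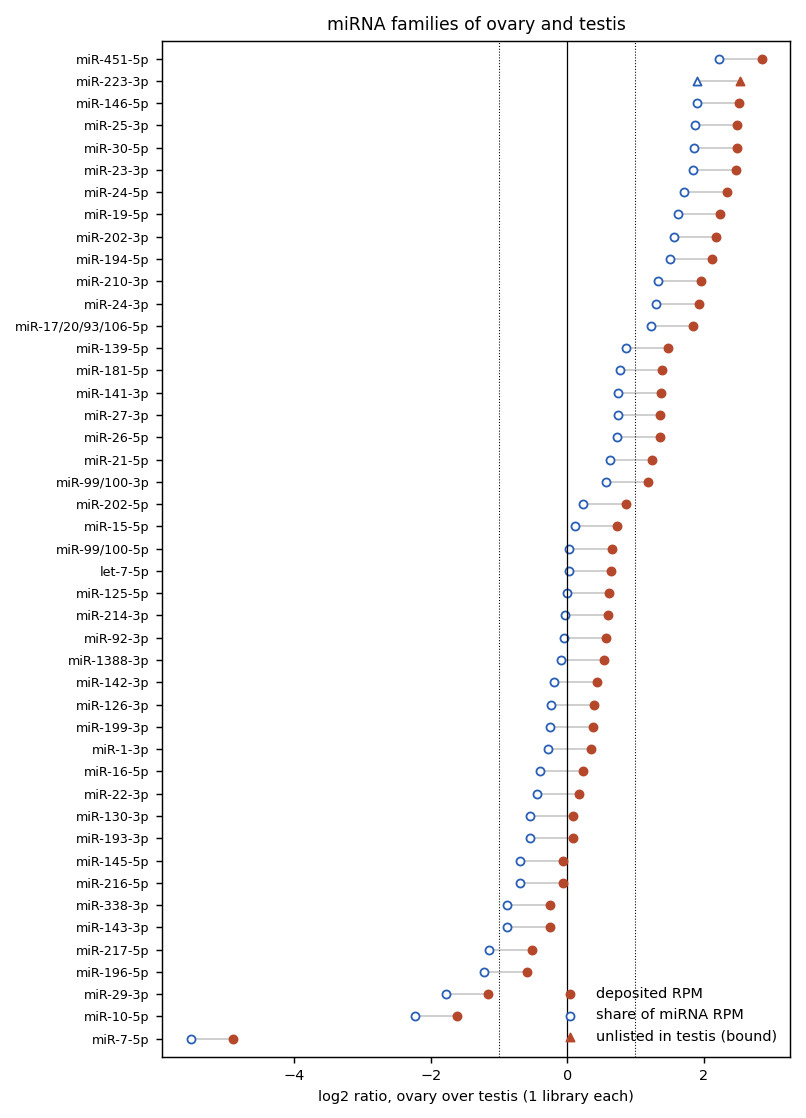
The log2 ratio of ovary over testis is plotted for the 45 miRNA family arms with at least 50 RPM in a gonad, on deposited RPM (filled) and as a share of miRNA RPM (open). Dotted lines mark a ratio of 2 in either direction, and the triangle marks a family unlisted in testis, whose ratio is a bound. The share scale moves every family towards testis by the same step, so that 13 rather than 20 families pass 2-fold in ovary and 5 rather than 3 in testis.

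The gonads had largely the same leading miRNAs. Of the 10 most abundant families of each gonad, 8 were shared, and the 10 held 78.0% of miRNA RPM in ovary and 78.7% in testis. The leading family was let-7-5p, known for timing development and keeping cells differentiated, with 6870 RPM in ovary and 4385 RPM in testis. As a share of miRNA RPM it was nearly equal, at 29.0% in ovary and 28.5% in testis. The gonad miRNA miR-202-5p followed in both, with 2280.0 RPM in ovary and 1256 RPM in testis, a ratio of 1.82 (95% counting interval 1.79 to 1.84) and of 1.18 as a share. Next in ovary stood the broadly expressed miR-26-5p and miR-21-5p, a miRNA of mesenchyme and of many other cells, with 2032 and 1902 RPM in ovary against 796 and 801 RPM in testis. Behind miR-202-5p in testis stood miR-143-3p, a smooth muscle miRNA, with 1044 RPM in ovary and 1249 RPM in testis, and miR-216-5p, best known from the pancreas, with 1124 RPM in ovary and 1177 RPM in testis.

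Several miRNAs of blood and immune cells were higher in ovary. The red cell miRNA miR-451-5p, which is cut from its hairpin by Argonaute instead of Dicer, had 100.1 RPM in ovary against 13.9 RPM in testis, a ratio of 7.22 (6.45 to 8.10). That ratio rests on forms unlisted in testis, since the 1 form listed in both had a ratio of 2.55, and raising unlisted forms to the listing minimum gave 2.95. Its cluster partner miR-144-3p had 44.6 RPM in ovary and was unlisted in testis. The myeloid miR-223-3p had 57.9 RPM in ovary and was unlisted in testis, which puts ovary at least 5.77-fold higher against the lowest listed value. The family miR-146-5p, induced by inflammatory signalling, had 399 RPM in ovary against 69.4 RPM in testis, a ratio of 5.75 (5.46 to 6.05). The pan-leukocyte miR-142-3p was closer, with 61.2 RPM in ovary and 45.4 RPM in testis. Over the 9 arms of the blood and immune list, 5 were listed in a gonad and 4 reached 50 RPM, of which 3 were at least 2-fold higher in ovary and none in testis, beside 44.4% and 6.67% of all 45 families. So few arms do not set this list apart from that background. The listed arms summed to 663 RPM in ovary and 129 RPM in testis, or 2.79% and 0.836% of miRNA RPM. The leukocyte miRNAs miR-150-5p, miR-155-5p and miR-142-5p were unlisted in both gonads. The part that blood left in the pooled tissue had in these values was not tested.

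The families miR-23-3p, miR-24-3p and miR-27-3p, which share clusters in vertebrate genomes, were all higher in ovary but by unequal folds. The family miR-23-3p had 379 RPM in ovary against 68.4 RPM in testis, a ratio of 5.53 (5.26 to 5.83). For miR-24-3p the values were 689 RPM in ovary and 181 RPM in testis, a ratio of 3.80 (3.67 to 3.92), and its other arm miR-24-5p had 52.7 RPM in ovary and 10.4 RPM in testis. For miR-27-3p they were 193 RPM in ovary and 75.1 RPM in testis, a ratio of 2.57 (2.44 to 2.71), which as a share of miRNA RPM came to 1.67 and no longer passed 2-fold. These counting intervals do not overlap, so the folds of the 3 families differed between these libraries beyond counting error.

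Families of the miR-17 to miR-92 cluster, which is known for driving cell proliferation, and of related clusters were split. Sequences with the seed aaagtgc, those of miR-17, miR-20, miR-93 and miR-106, summed to 877 RPM in ovary and 244 RPM in testis, a ratio of 3.60 (3.50 to 3.70). All 6 of their sequences listed in both gonads were higher in ovary, by 2.19 to 3.67, and another 6 were listed in ovary alone. These sequences are parts of the same sum. Over all families 159 miRNA sequences were listed in both gonads and 64 in ovary alone. All shared sequences lay on the same side of a ratio of 1 in 18 of 26 families. The related miR-25-3p had 158 RPM in ovary and 28.2 RPM in testis, a ratio of 5.62 (5.19 to 6.10), whereas miR-92-3p, with the same seed attgcac, had 67.3 RPM in ovary and 45.2 RPM in testis, a ratio of 1.49 (1.38 to 1.61). The arm miR-19-5p had 88.6 RPM in ovary and 18.8 RPM in testis. The arm miR-19-3p, under 50 RPM in both, had 13.6 RPM in ovary and 23.7 RPM in testis, but the form listed in both had a ratio of 1.07, and with unlisted forms raised to the listing minimum the ratio was 0.999. The family miR-130-3p was nearly level, with 128 RPM in ovary and 121 RPM in testis. Of the 8 arms of this list 6 were listed in a gonad and 4 reached 50 RPM, of which 2 were at least 2-fold higher in ovary and none in testis, close to the 44.4% of all families.

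Among other families, miR-194-5p, typical of liver and intestinal epithelia, had 117 RPM in ovary and 26.9 RPM in testis, against 7055 RPM in female liver and 6962 RPM in male liver. When the assignment allowed 1 mismatch instead of 2, miR-194-5p, miR-24-5p and miR-99/100-3p did not pass the 2-fold rule at 50 RPM. The family miR-15-5p then passed it in ovary, with a log2 ratio of 1.23 against 0.73 with 2 mismatches. The hypoxia-induced miR-210-3p had 51.2 RPM in ovary and 13.2 RPM in testis, a ratio of 3.89 (3.44 to 4.40). At least 2-fold higher in ovary on deposited RPM but not as a share were miR-139-5p, miR-181-5p, miR-141-3p, miR-26-5p, miR-21-5p, miR-99/100-3p and miR-27-3p, with ratios of 2.28 to 2.79 and share ratios of 1.48 to 1.81. For some families the ratio of sums rested on which forms passed the listing minimum. The widely expressed miR-30-5p had 6 forms and 80.2 RPM in ovary against 1 form and 14.3 RPM in testis, a ratio of 5.61. The single form listed in both, however, had 13.1 RPM in ovary and 14.3 RPM in testis, and with unlisted forms raised to the listing minimum the ratio was 1.25. In the same way the ratio of miR-25-3p became 3.29, and that of miR-141-3p 1.82, within 2-fold.

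Testis exceeded ovary by 2-fold in miR-7-5p, miR-29-3p and miR-10-5p. The neuroendocrine miRNA miR-7-5p had 20.2 RPM in ovary against 601 RPM in testis, 29.8-fold higher in testis (27.2 to 32.8), and was the only family with at least 50 RPM and more than 4-fold higher in testis on deposited RPM. With unlisted forms raised to the listing minimum its ratio of ovary over testis was 0.0835, against 0.0336 from the sums. Its 22-nt form was the only one listed in ovary, with 20.2 RPM against 368 RPM in testis, and 3 further forms were listed in testis. The family miR-29-3p, known for lowering collagens and other matrix proteins, had 294 RPM in ovary against 655 RPM in testis, 2.23-fold higher in testis (2.17 to 2.30) and 1.24% against 4.26% of miRNA RPM. The Hox cluster miRNA miR-10-5p had 25.2 RPM in ovary against 77.0 RPM in testis, but the form listed in both had 25.2 RPM in ovary and 40.9 RPM in testis. With unlisted forms raised to the listing minimum the ratio of miR-10-5p was 0.717, within 2-fold. As a share of miRNA RPM, miR-196-5p and miR-217-5p passed 2-fold in testis as well. The first, also of the Hox clusters, had 62.5 RPM in ovary and 94.5 RPM in testis, and the second had 145 RPM in ovary and 208 RPM in testis. Listed in testis alone, below 50 RPM, were miR-204-5p with 38.5 RPM, miR-135-5p with 40.5 RPM and miR-2184-5p with 35.5 RPM; the last was unlisted in all other libraries.

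Listed in ovary alone, besides miR-223-3p and miR-144-3p, were 10 arms between 10.8 and 22.9 RPM, the highest of them the neuronal miR-153-3p. Another 10 arms were listed in both gonads below 50 RPM, with ratios of sums between 0.576 for miR-19-3p, which did not hold for its shared form, and 2.09 for miR-221-3p. The most abundant single miRNA sequences listed in 1 gonad alone were miR-223-3p and a 21-nt form of miR-451-5p with 44.6 RPM in ovary, and the 21-nt and 23-nt forms of miR-7-5p with 105.2 and 104.6 RPM in testis.

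Families of smooth muscle and endothelium that reached 50 RPM lay within 2-fold in the gonads. So did those of mesenchyme and muscle that reached 50 RPM, except miR-21-5p with a ratio of 2.37. Below 50 RPM, miR-221-3p of the smooth muscle and endothelium list had 35.3 RPM in ovary and 16.9 RPM in testis, a ratio of 2.09. The cluster partners miR-143-3p and miR-145-5p, both of smooth muscle, had 1044 and 524 RPM in ovary against 1249 and 548 RPM in testis, ratios of 0.836 and 0.956. The endothelial miR-126-3p had 93.3 RPM in ovary and 71.1 RPM in testis, and the mesenchymal miR-199-3p and miR-214-3p had 226 and 51.6 RPM in ovary against 174 and 34.2 RPM in testis. The muscle miRNA miR-1-3p, with 100.6 RPM in ovary and 79.1 RPM in testis, and miR-125-5p, miR-99/100-5p, miR-1388-3p and miR-193-3p were within 2-fold as well, with ratios of 1.06 to 1.57. Of the 6 arms of the smooth muscle and endothelium list, 3 reached 50 RPM and none of them passed 2-fold, whereas 48.9% of all 45 families lay within 2-fold. As a share of miRNA RPM the listed arms of that list summed to 7.21% in ovary and 12.3% in testis. Of the 14 neuronal arms 4 were listed in a gonad and 2 reached 50 RPM, miR-7-5p and miR-338-3p, the second with 85.7 RPM in ovary and 102 RPM in testis. The counts of the other lists stand beside 44.4% higher in ovary and 6.67% higher in testis over all families. The Hox clusters and miR-99 to miR-125 had 0 of 4 arms at least 2-fold higher in ovary and 1 in testis. Mesenchyme and muscle had 1 and 0 of 4, the gonadal list 2 and 0 of 3, the let-7 list 0 and 0 of 1, the epithelial list 1 and 0 of 1, the list of liver, gut and pancreas 1 and 0 of 3, and the broadly expressed list 6 and 1 of 11. The median log2 ratio of that last list was 1.35, against 0.65 over the 44 arms with at least 50 RPM that both gonads listed. The value over all 54 arms was 0.56. Of the 6 arms higher in ovary in that list, miR-30-5p rests on forms unlisted in testis.

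Both arms of miR-202 were higher in ovary, but the 3p arm by more. In medaka miR-202 is known to be needed for normal egg production. The 3p arm had 245 RPM in ovary against 53.8 RPM in testis, a ratio of 4.55 (4.29 to 4.83) beside 1.82 for the 5p arm. The 5p arm thus exceeded the 3p arm 9.31-fold in ovary (9.06 to 9.57) and 23.4-fold in testis (22.1 to 24.7). With unlisted 3p forms raised to the listing minimum the ratio of the 3p arm was 2.92. Such a shift was not particular to miR-202. Of the other 7 pairs of arms listed in both gonads, only miR-126 had overlapping intervals, its 3p arm exceeding the 5p arm 7.14-fold in ovary (6.32 to 8.09) and 6.31-fold in testis (5.57 to 7.17). The 5p over 3p ratio was 7.68 in ovary and 1.35 in testis for miR-30, and 2.19 in ovary and 3.17 in testis for miR-99/100. The 3p over 5p ratio was 21.04 in ovary and 13.3 in testis for miR-199, 13.1 in ovary and 17.4 in testis for miR-24, 3.29 in ovary and 2.46 in testis for miR-214, and 0.154 in ovary and 1.26 in testis for miR-19. In all of these pairs but miR-99/100 the lowest value of an arm in a gonad lay between 10.4 and 13.9 RPM, near the listing minimum.

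Sequences of 1 family often differed in ratio, as the plot of single sequences by family shows. Of the 159 miRNA sequences listed in both gonads, 91 had at least 50 RPM in 1 of them. Of these 91, 40 (44.0%) were at least 2-fold higher in ovary and 2 (2.20%) in testis. Among 26 families with at least 2 sequences listed in both gonads, 18 had all of them on the same side of a ratio of 1. In 7 families the highest ratio was at least 2-fold above the lowest: miR-21-5p, let-7-5p, miR-15-5p, miR-146-5p, miR-23-3p, miR-24-3p and miR-29-3p.

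**Figure D2:**
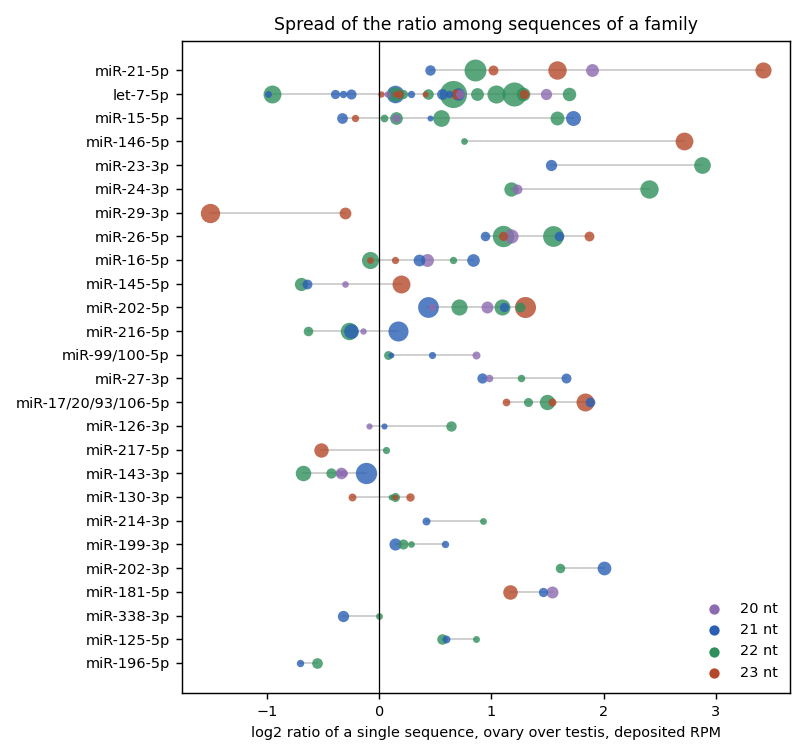
Each point is 1 sequence listed in both gonads, placed by its log2 ratio of ovary over testis on deposited RPM, for the 26 families with at least 2 such sequences; area grows with the higher RPM and colour gives the length. The widest spread is that of miR-21-5p, where a 23-nt form lies at 10.7-fold and the others between 1.37- and 3.73-fold.

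The widest spread was that of miR-21-5p, which set apart forms that differ only in the last base. Its 22-nt form had 947 RPM in ovary and 523 RPM in testis, a ratio of 1.81. The 23-nt form ending in a had 260 RPM in ovary against 24.3 RPM in testis, a ratio of 10.7 (9.85 to 11.6), the highest of any miRNA sequence listed in both gonads with at least 50 RPM in 1 of them. The form ending in c had 438 RPM in ovary and 146 RPM in testis, a ratio of 2.995 (2.88 to 3.11), and the form ending in t had 56.8 RPM in ovary and 28.2 RPM in testis. Among the 23-nt forms the share ending in a was 34.5% in ovary (33.7 to 35.2) and 12.2% in testis (11.4 to 13.2). It was 36.0% in female liver (34.3 to 37.7) against 17.4% in male liver (16.3 to 18.5), and 19.9% in female brain (19.3 to 20.6) against 17.2% in male brain (16.6 to 17.9). The female library of each organ was thus the higher, with the smallest gap in brain. Without a genome, a base copied from the gene cannot be told apart from one added later.

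**Figure D3:**
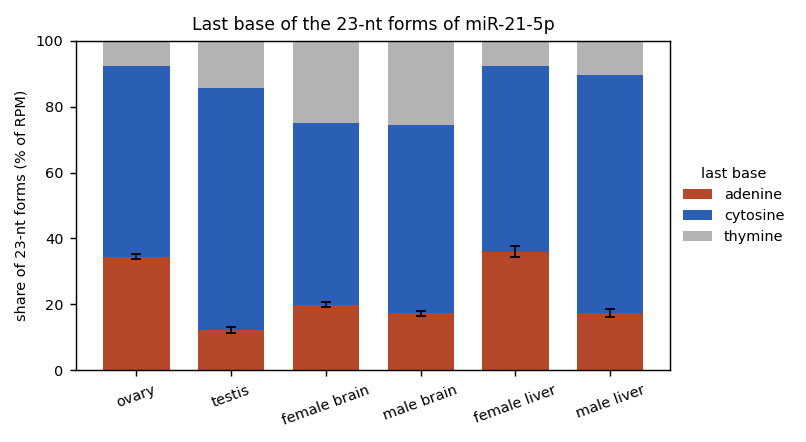
Bars give the share of the 23-nt forms of miR-21-5p that end in adenine, cytosine or thymine, as a percent of their summed RPM, in each of the 6 libraries; error bars are 95% Wilson intervals of the adenine share and cover counting error only. Adenine ends 34.5% in ovary against 12.2% in testis, and 36.0% in female liver against 17.4% in male liver.

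The pattern of miR-21-5p was not general among forms with an extra a at the 3′ end. Among 17 pairs of forms listed in both gonads in which the longer form has an extra a, the longer form was relatively more abundant in ovary in 6 and in testis in 11. Over all 68 pairs that differ by 1 base at the 3′ end, the longer form was relatively more abundant in ovary in 31 and in testis in 37. The pair of miR-21-5p stood first, with a longer form at 0.274 of the shorter one in ovary and 0.0464 in testis. Next came miR-146-5p, whose 23-nt form exceeded the 22-nt form 19.4-fold in ovary and 4.99-fold in testis.

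In miR-24-3p, forms that differ in the base before the last one had different ratios. The form ending in ccg had 430 RPM in ovary against 81.0 RPM in testis, a ratio of 5.31 (5.06 to 5.57). The form ending in cag had 171 RPM in ovary and 76.1 RPM in testis, a ratio of 2.25 (2.13 to 2.38). The first made up 62.5% of the family in ovary (61.7 to 63.2) and 44.6% in testis (43.2 to 46.1), against 4.33% to 12.8% in the brain and liver libraries. Both gonads thus held a larger share of this form than any other library, and ovary the larger of the 2.

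The miR-15-5p family, which restrains the cell cycle together with miR-16, was divided by its seed. Sequences with the seed agcagcg summed to 401 RPM in ovary and 112 RPM in testis, a ratio of 3.60. Those with the seed agcagca, from miR-15, miR-16 and miR-457, summed to 1294 RPM in ovary and 1097 RPM in testis, a ratio of 1.18. The leading agcagca sequence of miR-15-5p, assigned with 2 mismatches, had 297 RPM in ovary and 203 RPM in testis. The leading sequence of miR-16-5p had 306 RPM in ovary and 325 RPM in testis.

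Within let-7-5p the ratios of the 28 sequences listed in both gonads ran between 0.501 and 3.22, with 23 above 1 and 5 below. The sequence with agtttgtata had 1504 RPM in ovary and 656 RPM in testis, and that with agattgaata had 200.3 RPM in ovary and 389 RPM in testis. For miR-29-3p, both sequences listed in both gonads were lower in ovary. The form with cggtgtt had 188 RPM in ovary and 535 RPM in testis, a ratio of 0.351 (0.339 to 0.363), and the form with cagtgtt had 75.2 RPM in ovary and 92.9 RPM in testis, a ratio of 0.810 (0.761 to 0.862). A 22-nt form of the second was listed in ovary alone, with 30.8 RPM. With that form added, the second summed to 105.9 RPM in ovary against 92.9 RPM in testis, a ratio of 1.14. In miR-26-5p, the form ending in ggtt had 740 RPM in ovary and 253 RPM in testis, a ratio of 2.92, and the form ending in ggct had 835 RPM in ovary and 388 RPM in testis, a ratio of 2.15.

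Lengths were alike over all listed miRNA reads but differed in single families. Of miRNA reads 4.86% were of 20 nt, 21.01% of 21 nt, 56.2% of 22 nt and 17.9% of 23 nt in ovary, against 4.38%, 25.1%, 54.4% and 16.0% in testis, and the mean length was 21.87 nt in ovary and 21.82 nt in testis. Among the 29 families with at least 50 RPM in both gonads, the mean length weighted by RPM was over 0.1 nt longer in ovary in 7 (24.1%), over 0.1 nt shorter in 3 (10.3%) and within 0.1 nt in 19. The most frequent length and the most frequent 5′ end were the same in both gonads in all 29. For miR-202-5p in ovary this was narrow, with 34.9% at 21 nt and 34.2% at 23 nt. At its main 5′ end alone, the 23-nt form led in ovary with 41.5% and the 21-nt form in testis with 52.9%. The longer families in ovary were miR-202-5p, miR-23-3p, miR-99/100-5p, miR-126-3p, miR-145-5p, miR-21-5p and miR-146-5p, and the shorter ones miR-22-3p, miR-202-3p and miR-16-5p. Restricted to sequences listed in both gonads, a choice made after the values were seen, 6 of the 7 remained longer and 1 of the 3 shorter. The difference of miR-99/100-5p was 0.19 nt over all sequences but -0.17 nt over the shared ones, so that its longer mean in ovary rests on forms unlisted in testis. With it miR-181-5p joined the shorter families, and miR-22-3p and miR-202-3p left them.

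**Figure D4:**
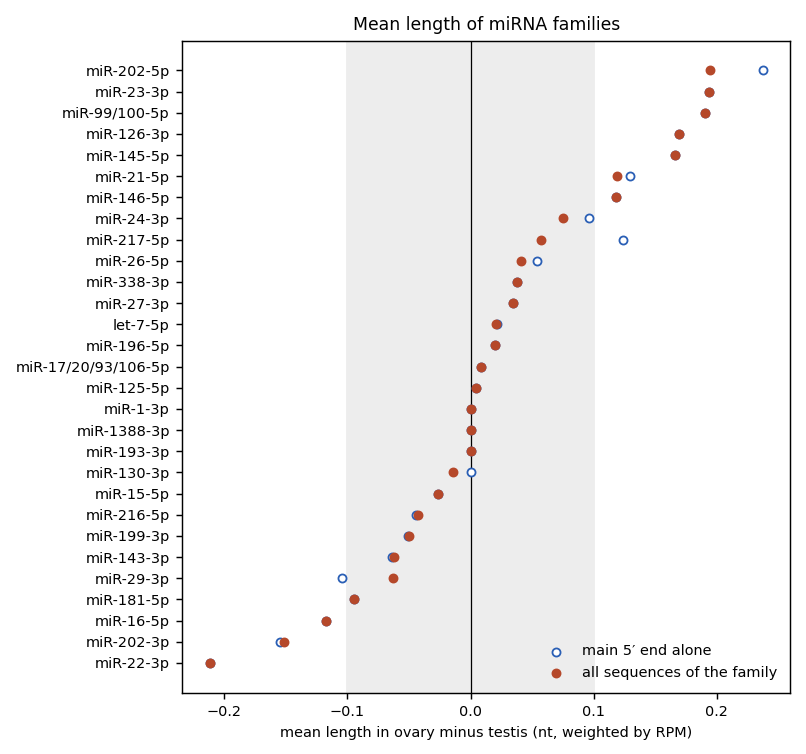
The mean length in ovary minus that in testis, weighted by RPM, is plotted for the 29 families with at least 50 RPM in both gonads, over all sequences (filled) and over those with the main 5′ end (open); the grey band spans 0.1 nt either side of 0. The filled values lie between -0.21 nt for miR-22-3p and 0.19 nt for miR-202-5p, and 19 families lie in the band by these. The open value of miR-202-5p is 0.24 nt.

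The largest increase in length was that of miR-202-5p, with a mean of 21.88 nt in ovary and 21.69 nt in testis. Its 23-nt form had 779 RPM in ovary and 317 RPM in testis, a ratio of 2.46 (2.39 to 2.52), and its 21-nt form 737 RPM in ovary and 546 RPM in testis, a ratio of 1.35 (1.32 to 1.38). The 23-nt form made up 34.2% of the arm in ovary (33.8 to 34.6) and 25.2% in testis (24.8 to 25.7). Its 5′ ends did not shift to the same extent: the main one held 82.3% in ovary (82.0 to 82.7) and 82.1% in testis (81.7 to 82.5). In miR-23-3p the 22-nt form had 298 RPM in ovary and 40.7 RPM in testis, a ratio of 7.34, and the 21-nt form 80.2 RPM in ovary and 27.7 RPM in testis, a ratio of 2.89. The longer form made up 78.8% of the family in ovary (77.9 to 79.7) and 59.5% in testis (57.2 to 61.8). In miR-145-5p the 23-nt form had 393 RPM in ovary and 343 RPM in testis, while the 22-nt form had 81.4 RPM in ovary and 132 RPM in testis, so the length forms lay on opposite sides of a ratio of 1. Of the families shorter in ovary, miR-16-5p had a mean of 21.43 nt in ovary and 21.54 nt in testis. The tumour suppressor miR-22-3p had its 22-nt form at 67.8 RPM in ovary and 103 RPM in testis, and 2 further forms were listed in ovary alone.

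On deposited RPM the same female over male contrast was far smaller in brain. Where the higher sex reached 50 RPM, 48.9% of 45 families lay within 2-fold in the gonads. The values were 95.2% of 83 in brain and 63.2% of 38 in liver. As a share of miRNA RPM, 27 of the 45 gonad families lay within 2-fold. Brain also held far more listed miRNA, 232422 RPM in female and 211095 RPM in male, against 23724 RPM in ovary and 15393 RPM in testis. Gonad families thus lay nearer the listing minimum in general, and the effect of this on the contrast was not tested. Of the 20 families at least 2-fold higher in ovary, 18 were listed in both sexes in brain, where 17 lay within 2-fold and 1, miR-451-5p, was 2.04-fold higher in female brain. In liver 17 were listed in both sexes, of which 12 lay within 2-fold and 5 were at least 2-fold higher in male liver. Over all 38 liver families that reached 50 RPM, 14 were at least 2-fold higher in male liver and 0 in female liver. The 5 families are therefore not set apart from liver as a whole. Of the 3 families higher in testis, miR-29-3p had 436 RPM in female liver and 946 RPM in male liver, and all 3 lay within 2-fold in brain. The brain value of miR-29-3p rests on unequal lists, since its form with cagtgtt had 5976 RPM in male brain and was unlisted in female brain. Whether a family was higher in the female library because of sex or because of the organ cannot be told apart in the gonads.

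**Figure D5:**
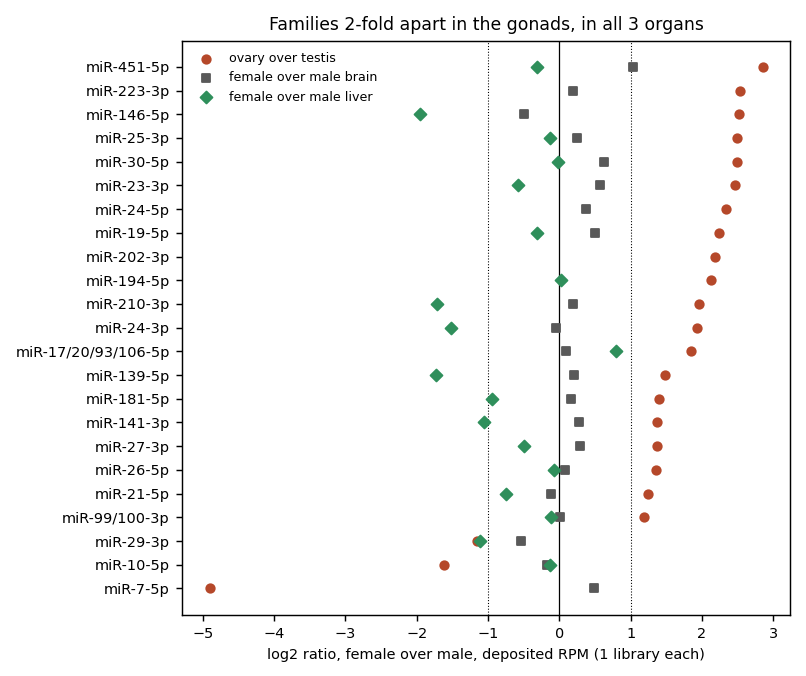
The log2 ratio of female over male on deposited RPM is plotted for the 23 families at least 2-fold apart in the gonads, as ovary over testis (circles), female over male brain (squares) and female over male liver (diamonds); brain and liver points are drawn where both sexes list the family. The ratio of miR-223-3p in the gonads is a bound. Brain points lie within 2-fold except that of miR-451-5p, 2.04-fold higher in female brain, while the gonad points reach 2.85 for miR-451-5p and -4.90 for miR-7-5p.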

How the data were processed

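Total RNA of pooled tissue was treated with DNase, gel-purified to small RNA, ligated to adapters and amplified by PCR, per the labels' protocols. The submitters' processing notes name CASAVA 1.7.0, with trimming, alignment and annotation not given in the sources used here. The authors deposited, per library, exact sequences with their length and an expression value. The file headers name no unit. The deposited values were taken as RPM because each was a whole multiple, within 0.02, of 1 read in a fixed total, and the totals so implied served for depth and counting intervals alone.

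Sequences were assigned to conserved miRNA families with 191 hand-written keys of 18 nt for 144 arms, allowing 2 mismatches and a 5′ shift of 3 nt over an overlap of 15 nt or more. Of 10000 random sequences 1 was assigned, but random bases do not stand for other small RNAs. In 955 trials on the keys 1 base behind the seed was changed, and all 955 went to their family. With 2 mismatches allowed, such a trial could fail only through a tie or a closer key of another family. Keys for miR-19-5p, miR-24-5p and a second one for miR-125-5p were written once unassigned sequences were known, and assigned 3 gonad sequences. No key was written for miR-486-5p. No miRNA reference or genome of the species was used, so paralogues were not told apart. Library totals of miRNA count assigned sequences only. RPM were summed per family, with unlisted sequences as 0; ratios carry exact conditional binomial intervals (95%), and a family unlisted in a gonad was set against that file's lowest value. Families named were the 12 with the largest ratio in ovary and the 9 that were higher in testis (12 were allowed), the 10 most abundant per gonad and list members; sequences named by rule were the 10 largest ratios each way and the 5 most abundant listed in 1 gonad. Other sequences and the families miR-139-5p, miR-99/100-3p, miR-1388-3p, miR-135-5p and miR-2184-5p were chosen after their values were seen. The comparison, the lists and the rules were chosen with earlier results of these data known. Calculations used Python 3.11.15 with SciPy 1.17.1 and figures Matplotlib 3.10.9.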

Additional observations from a re-analysis of the deposited data

Results flagged for a closer look

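In 4 families the sexes differed by at least 2-fold one way in the gonads and the other way in liver, where 1 sex reached 50 RPM; the difference between organs was not tested, since each value is 1 library. The inflammation-linked miR-146-5p, 5.75-fold higher in ovary than in testis, had 39.3 RPM in female liver and 151.5 RPM in male liver, a female over male ratio of 0.259. The ratio of miR-24-3p was 3.80 in the gonads and 0.348 in liver, that of miR-139-5p was 2.79 and 0.300, and that of the epithelial miR-141-3p was 2.59 and 0.480. The gonad ratio of miR-141-3p was 1.82 with unlisted forms raised to the listing minimum, within 2-fold. Male liver was at least 2-fold higher in 14 of all 38 liver families with at least 50 RPM, and female liver in 0. The median log2 ratio over these 38 was -0.54, and over the 54 families listed in both sexes -0.43. The deposited liver values as a whole thus lay towards the male library, so the 4 families are not set apart by their direction in liver.

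Of the sequences assigned to no family, 53 were listed in both gonads, 33.8% of those in ovary and 36.6% of those in testis. Over all sequences the shared part was 55.8% and 66.0%. Among the 157 in ovary, the most abundant sequence listed in no other library had 20 nt and 143 RPM. Among the 145 in testis, the most abundant sequence listed in no other library had 23 nt and 65.8 RPM. An unlisted sequence may still lie just below the listing minimum.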

How the results depend on the processing

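The number of families at least 2-fold higher in ovary was 20 and in testis 3. These became 13 and 5 as a share of miRNA RPM, 13 and 5 with median-of-ratios scaling, and 13 and 5 as a share with let-7-5p left out of the total. With 20 RPM asked of the higher gonad they were 23 and 6, and with 100 RPM 12 and 2. Alternatives added after seeing the data raised unlisted sequences to the listing minimum, which gave 18 and 2 on deposited RPM and 9 and 5 as a share. Assignment with 1 mismatch, the most abundant sequence in place of the sum, sequences listed in both gonads and a minimum of 20 RPM for a sequence gave 16 to 20 and 2 to 3. Over all 11 settings, 4 of the 20 families were at least 2-fold higher in ovary in each (miR-146-5p, miR-23-3p, miR-24-3p and miR-25-3p), and miR-7-5p and miR-29-3p of the 3 in testis; miR-19-5p and miR-210-3p missed only the 100 RPM minimum. The log2 ratio of miR-30-5p was 2.49 over all forms and -0.13 for the most abundant sequence. The median log2 ratio of 0.56 was -0.068 as a share. The 7 families longer and 3 shorter in ovary were 4 and 3 with sequences under 20 RPM treated as unlisted. With equal weight of sequences they were 5 and 6, so more families were then shorter in ovary than longer. Causes of these shifts other than the change of scale or of the sequences counted were not tested. A listing minimum near 10 RPM limits what can be said of rarer forms.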
